A study of Mus musculus with 4 samples.

Results

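Fos, Fosb, Fosl1, Fosl2, Jun, Junb, Jund and Atf3 encode the classical subunits of the transcription factor AP-1 and the related factor ATF3, and their transcripts were compared between follicular helper T (TFH) cells with and without the ETS family factor Etv5. The 8 genes were taken by symbol from the authors' deposited table of 23996 genes, and all 8 were found. TFH cells are the subset of CD4 T cells that gives help to germinal centre B cells. Mice were given ovalbumin in alum, and 7 days later splenocytes that carried CD4, CD44, CXCR5 and PD-1 on the surface were sorted and their polyadenylated RNA sequenced. The wild-type group (WT, Etv5f/f) carried floxed Etv5 without Cre. The conditional knockout group (Etv5 cKO, Etv5f/f;Cd4-Cre) carried the same allele with Cre driven by Cd4 sequences, which acts in developing T cells and therefore also in T cells other than TFH cells. Each genotype had 2 libraries, and the labels do not say whether these came from separate mice or from pools.

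AP-1 is a dimer of basic leucine zipper (bZIP) proteins. Fos proteins do not pair with themselves and bind DNA with a Jun partner, whereas Jun proteins can also pair with each other or with ATF and BATF proteins. In T cells most of these genes are immediate early genes, transcribed within minutes of T cell receptor stimulation through ERK and JNK kinases, and the dimers bind cytokine genes together with NFAT. The Fos gene is switched on by SRF acting with Elk proteins, which are themselves ETS factors, and by CREB at a cyclic AMP response element (CRE). ATF3 is a bZIP factor induced by stress.

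Levels are the authors' FPKM, in which fragment numbers are divided by transcript length and library size, and both libraries of a genotype share 1 value per gene. No value per library was used here, so no spread between libraries can be given, the depth is unknown, and the p of the authors' Cuffdiff test is the measure of error. It may reflect technical spread. The authors' deposited table lists the target gene Etv5 at 5.24 FPKM in WT, and it fell to 2.12 FPKM in cKO (log2 fold change -1.31, Cuffdiff adjusted p = 0.0181). All 10 markers of the sorted TFH cells were detected, with Cd3e at 578 and 522 FPKM, Cd4 at 460.2 and 469.6 FPKM and Sh2d1a at 226 and 223 FPKM in WT and cKO. Of these markers 8 had lower values in cKO (median log2 fold change -0.09), none was called by Cuffdiff and 1 was below an unadjusted p of 0.05. Of all tested genes 0.346% were called at a Cuffdiff adjusted p below 0.05 and 2.4% were below an unadjusted p of 0.05. Lower values in cKO were seen in 51.1% of them. Most markers of other cells had higher values in cKO in the same libraries. Of 12 tested myeloid markers 12 were higher and 1 was called (summed level 216 and 279 FPKM, with Cst3, C1qb and C1qa the most abundant), and of 10 tested granulocyte and erythroid markers 10 were higher and 6 called, 5 of them erythroid and the other Mpo (69.4 and 306 FPKM with the 3 platelet markers, none of which was tested, led by Hba-a1, which is counted with Hba-a2, by Hbb-bt and by Slc4a1). Of these 3 leading genes Hba-a1 (26.8 and 161.7 FPKM) was not called (Cuffdiff adjusted p = 0.999), whereas Hbb-bt and Slc4a1 were. Of 7 tested CD8 and NK markers 7 were higher, with none called by Cuffdiff and 2 below an unadjusted p of 0.05 (21.3 and 27.4 FPKM, led by Klrb1c, Cd8b1 and Gzma), and B cell markers, led by Cd22, Cd79b and Cd79a, summed to 19.5 and 18.8 FPKM. No marker of these 4 lists was at 0 in both genotypes. Myeloid cells and other lymphocytes also transcribe Fos and Jun genes, and the part of these cells in the values below was not tested.

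The sequences just upstream of the transcription starts are shown for Fos, Fosb, Jun and Junb, because the first 3 had the lowest fold changes of the tested Fos and Jun genes and Junb the highest level. The 150 bases before the start that the RefSeq promoter table uses for each gene (GRCm38.p6, the assembly behind mm10) run 5′ to 3′ on the strand of the gene, and position -1 is the last base before that start. For Fosb the outermost RefSeq start lies 73 bases and that of GENCODE M21 6 bases further upstream, so part of its printed sequence is inside the longest RefSeq gene model. Capitals mark the CRE core TGACG, the variant TGACATCA, and CGGAA, a form of the ETS core, each on either strand. Copies of GGAA after another base, which occur in the Fos, Fosb, Jun and Junb sequences when both strands are read, are not marked.
Fos (chr12:85473740-85473889, plus strand): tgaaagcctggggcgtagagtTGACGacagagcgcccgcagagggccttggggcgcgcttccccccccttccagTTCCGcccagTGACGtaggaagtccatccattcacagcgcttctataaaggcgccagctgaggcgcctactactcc
Fosb (chr7:19310046-19310195, minus strand): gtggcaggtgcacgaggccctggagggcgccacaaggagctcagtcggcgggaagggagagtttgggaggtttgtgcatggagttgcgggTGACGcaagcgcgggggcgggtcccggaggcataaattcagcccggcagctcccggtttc
Jun (chr4:95052223-95052372, minus strand): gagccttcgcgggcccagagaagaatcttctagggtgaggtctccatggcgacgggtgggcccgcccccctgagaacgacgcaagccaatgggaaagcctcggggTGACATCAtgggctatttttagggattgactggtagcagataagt
Junb (chr8:84978749-84978898, minus strand): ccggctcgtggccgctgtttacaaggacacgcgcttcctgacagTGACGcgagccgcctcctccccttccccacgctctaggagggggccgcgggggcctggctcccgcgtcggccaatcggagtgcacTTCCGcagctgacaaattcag

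RefSeq promoter sequences were at hand for 7 of the 8 genes, all but Fosl1. The CRE core TGACG, the sequence that CREB and ATF proteins recognise, lay in the 250 bases before the start of 4 of the 7 genes, Fos, Fosb, Junb and Atf3, against 17.8% of all 32851 RefSeq promoter windows. In Fos it began at -66, with a second copy at -129. In Fosb it began at -60 from the start used, which is inside the longest RefSeq model. In Junb it began at -106, and in Atf3 at -7 on the opposite strand. Jun held none, but had TGACATCA at -45, a sequence that 2.93% of all windows contain. Other forms of the ETS core than CGGAA were not searched. CGGAA was found in Fos (at -225 and, on the opposite strand, at -76), in Fosl2 (at -72) and in Junb (at -21, opposite strand). It lies in 25.2% of all windows. The Fos copy at -76 and the Fosl2 copy share bases with the GC box GGGCGG, and none of the capitals overlap each other. Neither the AP-1 consensus TGANTCA (6.75% of all windows) nor an SRF-binding CArG box (1.47%) was found in the 7 windows. Sequence more than 250 bases before the start was not searched, so either may lie further upstream. The motifs given here are matches of letters in a short window, not measured binding, and the table holds no binding data. Positions depend on the start chosen. The outermost GENCODE M21 start was the one used for Fos and Jun, lay 30 bases inside the RefSeq gene for Junb, and lay 671 bases upstream for Fosl2 and 34706 bases upstream for Atf3. For Jund it lay 1210 bases inside the RefSeq gene, and that window is not shown.

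In TFH cells Junb was the most abundant of the 8 transcripts and Fosl1 the least abundant. In WT the order of FPKM levels, which are scaled to transcript length, was Junb, Fos, Jund, Fosb, Jun, Fosl2, Atf3 and Fosl1. The order in Etv5 cKO was the same. Junb, at 422 FPKM in WT, stood above 98.7% of the tested genes, and Fos, at 180.5 FPKM, above 96.8%. Some neighbours in the order were close: in WT Fos stood at 1.77 times Jund and Fosb at 1.45 times Jun, and in cKO these ratios were 1.14 and 1.11. Without values per library it cannot be said whether neighbours differ beyond their spread.

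**Figure D1:**
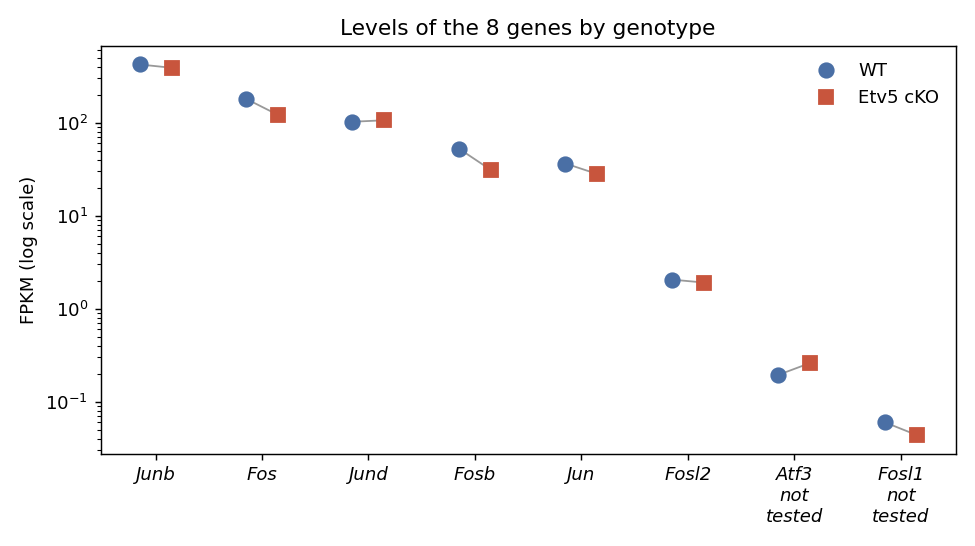
FPKM on a log scale for each of the 8 genes in WT (circles) and Etv5 cKO (squares), 1 value per genotype over 2 libraries, without error bars because no value per library was used; lines join the values of a gene. The levels run from 422 FPKM for Junb to 0.0437 FPKM for Fosl1, and the order is the same in both genotypes.

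The main comparison asked which of these transcripts differed without Etv5. Fosb fell, and none of the other 5 tested genes passed. Of the 8 genes 6 were tested by the authors, 5 of them with lower and 1 with a higher value in Etv5 cKO; Fosl1 and Atf3 were not tested. Over all 11569 tested genes 40 (0.346%) were called at an adjusted p below 0.05, 28 of them lower in cKO (0.242%), and 51.1% had a lower value in cKO. The median log2 fold change was -0.25 over the 6 tested members and -0.003 over all tested genes. Centring on that median or quantile normalization left the same number, 5 of 6, with lower values.

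Among the Fos family, Fosb (chromosome 7, 19302696 to 19310045 on mm10), an AP-1 subunit whose short form ΔFosB is known to accumulate in stimulated neurons, was listed at 52.5 FPKM in WT against 31.0 FPKM in cKO by the authors' deposited table. It fell to 59.0% of the WT level, a log2 fold change of -0.76, with an unadjusted Cuffdiff p of 0.00015 and an adjusted p of 0.0434. Of the 11569 tested genes, 132 had a lower log2 fold change. The call lies at the edge of the threshold. All p-values of the table are multiples of 5e-05, 7 called genes, Fosb among them, share the largest p of a call, and 1 step more for Fosb would give an adjusted p of 0.0564. Adjusted over every listed gene its p was 0.0900, and over genes averaging 5 FPKM or more 0.0519, which ends the call in both cases. GENCODE M21 lists 6 protein-coding transcripts of Fosb, and a value per gene mixes full-length and ΔFosB messages. In bulk RNA, fewer cells that transcribe Fosb and less Fosb RNA per cell cannot be told apart, and this holds for every gene below.

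Fos (chromosome 12, 85473901 to 85477270), the prototype of the family and the classical partner of Jun, was listed at 180.5 FPKM in WT against 121 FPKM in cKO by the authors' deposited table. In absolute terms this was the largest difference among the 8 genes, 59.3 FPKM, and the cKO level was 67.1% of the WT level. Its log2 fold change of -0.58 did not pass over all genes, with an unadjusted Cuffdiff p of 0.00555 and an adjusted p of 0.606. Fos and Fosb were the 2 members below an unadjusted p of 0.05, where 2.4% of all tested genes lie, 1.3% with lower values in cKO. The ratio of Fosb to Fos transcripts was 0.291 in WT and 0.256 in cKO.

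The other Fos family genes were at lower levels, and Fosl1 was close to 0. Fosl2 (chromosome 5, 32136472 to 32157839), which encodes Fra-2, stood at 2.05 and 1.91 FPKM (log2 fold change -0.11, Cuffdiff adjusted p = 0.999). Fosl1 (chromosome 19, 5447698 to 5457563), which encodes Fra-1, was at 0.0599 FPKM in WT against 0.0437 FPKM in cKO and was not tested. Its deposited interval overlaps the opposite-strand gene Ccdc85b (4.23 and 4.55 FPKM) over 4384 bases, so the Fosl1 value is uncertain, since the strand setting of the counting is not known here. The Fos family signal of these TFH cells was therefore that of Fos and Fosb, which made up 233 of the 235 FPKM of the family in WT.

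**Figure D2:**
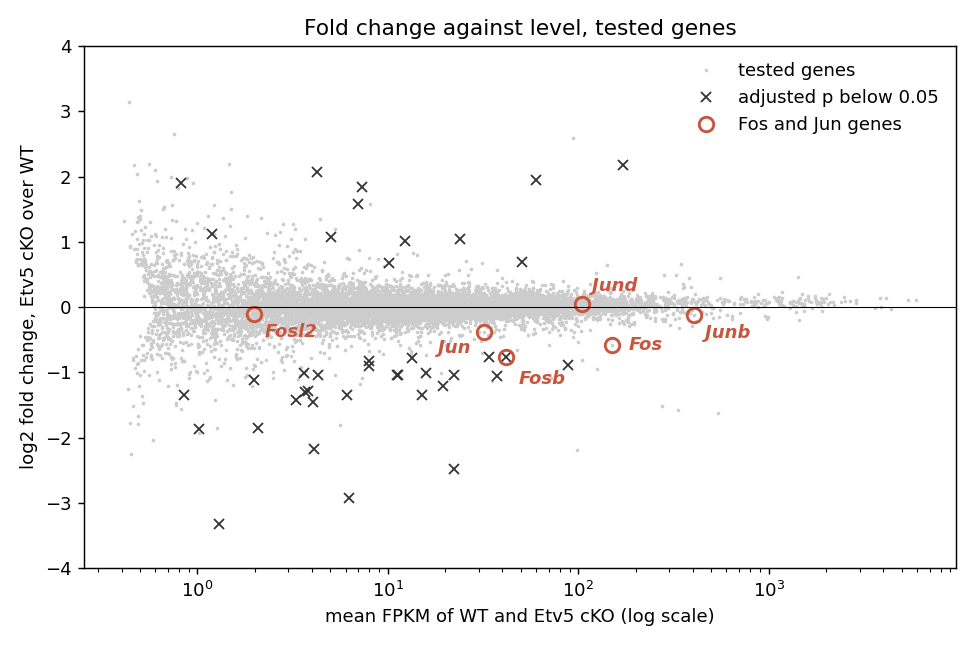
Log2 fold change of Etv5 cKO over WT against mean FPKM (log scale) for 11562 tested genes (grey points), with the called genes as crosses and the 6 tested Fos and Jun genes as labelled circles; 5 tested genes with a level of 0 in 1 genotype and 2 beyond a log2 fold change of 4 in size are not drawn. Fosb (-0.76) lies below the bulk of genes of its level and carries a cross, Fos (-0.58) lies below the bulk without one, and Jund (0.05) lies on the centre line.

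None of the Jun family genes passed the test, and their cKO values ran from 77.1% to 104% of WT. Whether the families differ from each other was not tested. Jun (chromosome 4, 95049036 to 95052222), the prototype Jun protein and a target of JNK, was listed at 36.3 FPKM in WT against 28.0 FPKM in cKO by the authors' deposited table, 77.1% of WT. Its log2 fold change was -0.38, with an unadjusted Cuffdiff p of 0.0556 and an adjusted p of 0.999. Junb (chromosome 8, 84976909 to 84978748), which pairs with BATF on composite sites bound with IRF4, stood at 422 and 389 FPKM (log2 fold change -0.12, adjusted p = 0.999). Jund (chromosome 8, 70697739 to 70700616), the family member that is made in resting cells and responds least to stimulation, stood at 102 and 106.0 FPKM (log2 fold change 0.05, adjusted p = 0.999). It was the 1 tested member with a higher value in cKO. The 3 Jun genes have a single exon in their longest coding GENCODE M21 transcript, whereas the Fos family genes and Atf3 have 4. Antisense genes are annotated over Jun (Junos, 689 bases) and over Jund (Gm11175, 919 bases), so these 2 values too depend on the strand setting.

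Atf3 (chromosome 1, 191170297 to 191183333), which can pair with Jun proteins and is induced by stress signals, stood at 0.193 FPKM in WT against 0.260 FPKM in cKO and was not tested. Both values are far below those of Jun and Fos. With a pseudocount of 1 FPKM its log2 fold change went from 0.43 to 0.08.

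Added together, the Fos family came to 235 FPKM in WT against 154 FPKM in cKO, 65.5% of the WT sum, and the Jun family at 561 and 523 FPKM, 93.3%. The ratio of Fos family to Jun family transcripts was 0.419 in WT and 0.295 in cKO. Fos and Fosb made up 29.3% of the sum over all 8 genes in WT and 22.5% in cKO, while Junb alone made up 53.0% and 57.4%. In both genotypes the Jun family sum exceeded the Fos family sum. Because much of the Jun sum is Junb, the ratio of Fos family to Jun plus Jund was also taken, and it was 1.70 in WT and 1.15 in cKO. No test was made of these sums and ratios, for which the table gives no error.

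**Figure D3:**
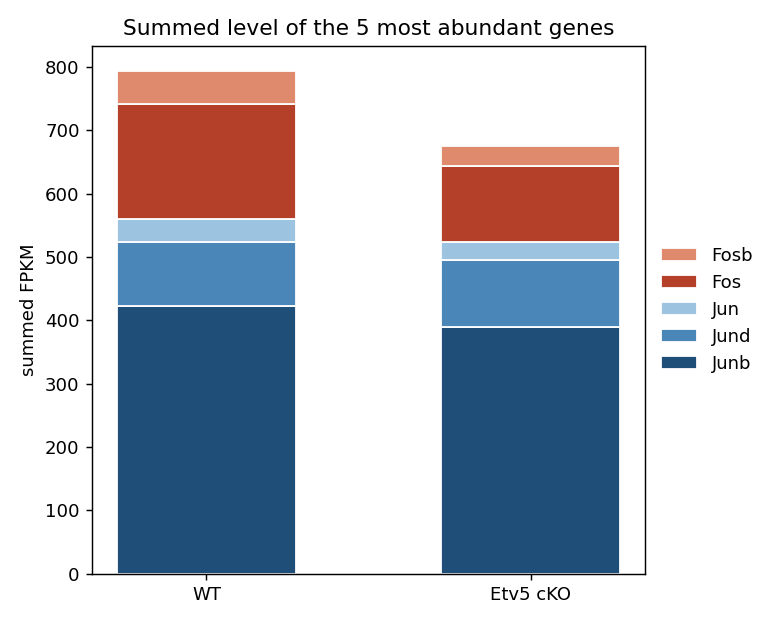
Stacked FPKM of the 5 most abundant genes in WT and Etv5 cKO, with the Jun family in blue and the Fos family in red, 1 value per genotype without error. The red part, Fos with Fosb, is 233 FPKM in WT against 152 FPKM in cKO, and the blue part is 561 and 523 FPKM.

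Genes with a pair of levels close to those of Fosb and Fos were looked up by distance on the log2 scale over the 2 genotypes, the 2 conditions of the table. Nearest to Fosb were Hsph1, a chaperone of the HSP110 class (46.6 and 34.3 FPKM, distance 0.23), Nrp1, a semaphorin co-receptor (45.0 and 32.9 FPKM, distance 0.24), and Sostdc1, a secreted BMP and Wnt antagonist (58.2 and 36.8 FPKM, distance 0.29). None of these passed the Cuffdiff test over all genes (adjusted p = 0.999, 0.866 and 0.181). Nearest to Fos were Ephx1, an epoxide hydrolase (159 and 133 FPKM, distance 0.23), Atf4 (160.4 and 140.1 FPKM, distance 0.27) and Id3, an inhibitor of E proteins (152 and 135 FPKM, distance 0.29). All 3 had smaller log2 fold changes than Fos, between -0.26 and -0.18.

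Other immediate early genes had values on both sides of the WT level. Of 28 tested genes of that list 17 had lower and 11 higher values in Etv5 cKO, and 1 was called. Their median log2 fold change was -0.04, beside -0.003 for all tested genes, of which 51.1% had lower values and 0.346% were called. The called gene was Npas4, an activity-regulated bHLH-PAS factor best known from neurons, which the authors' deposited table lists at 15.3 FPKM in WT and which fell to 7.45 FPKM (log2 fold change -1.03, Cuffdiff adjusted p = 0.0181). Klf4, a zinc finger factor, stood at 6.21 and 3.62 FPKM (unadjusted p of 0.00410, adjusted p of 0.539). Egr2, a zinc finger factor induced by T cell receptor signals, stood at 38.4 and 28.6 FPKM (unadjusted p of 0.0218, adjusted p of 0.999). These 3 were the genes of the list below an unadjusted p of 0.05, all with lower values, where 1.3% of all tested genes lie. The most abundant others, Nfkbia (190 and 186 FPKM), Mcl1 (184.1 and 179.7 FPKM) and Pim1 (125 and 131 FPKM), lay within 0.1 of 0 on the log2 scale.

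Among 27 tested bZIP factors outside the Fos, Jun and Atf3 set none was called by Cuffdiff, 18 had lower and 9 higher values, and the median log2 fold change was -0.03. Maf, which drives Il21 transcription, stood at 206 and 173 FPKM, the stress factor Atf4 at 160.4 and 140.1 FPKM, and Batf, the partner of JunB in T cells, at 93.3 and 80.0 FPKM (adjusted p = 0.999 each). At an unadjusted p below 0.05 there was 1 gene of this list, with a higher value in cKO. Of all tested genes 2.4% lie there, counting both directions.

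The kinases and factors that switch Fos and Jun genes on showed small differences. Of 29 tested genes of this list, which holds the MAP kinase cascades, SRF and the Elk proteins, 17 had lower and 12 higher values (16 lower when centred on the median of all genes or quantile normalized). None was called by Cuffdiff and none was below an unadjusted p of 0.05. Their median log2 fold change was -0.02. The kinase Rps6ka1, which acts downstream of MAP kinases, stood at 76.9 and 79.5 FPKM (adjusted p = 0.999).

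The brakes on AP-1, MAP kinase phosphatases, ubiquitin ligases for Jun and proteins that speed the decay of AU-rich messages such as Fos, had values on both sides of the WT level. Of 16 tested genes 9 had lower and 7 higher values, with a median log2 fold change of -0.02. Cuffdiff called none of them, and none was below an unadjusted p of 0.05. The mRNA decay factors Zfp36 (358 and 320.3 FPKM), Zfp36l1 (280.1 and 269 FPKM) and Zfp36l2 (311 and 397 FPKM) were the most abundant. Zfp36l2 had the lowest p of these 3 (unadjusted p of 0.0924, adjusted p of 0.999).

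**Figure D4:**
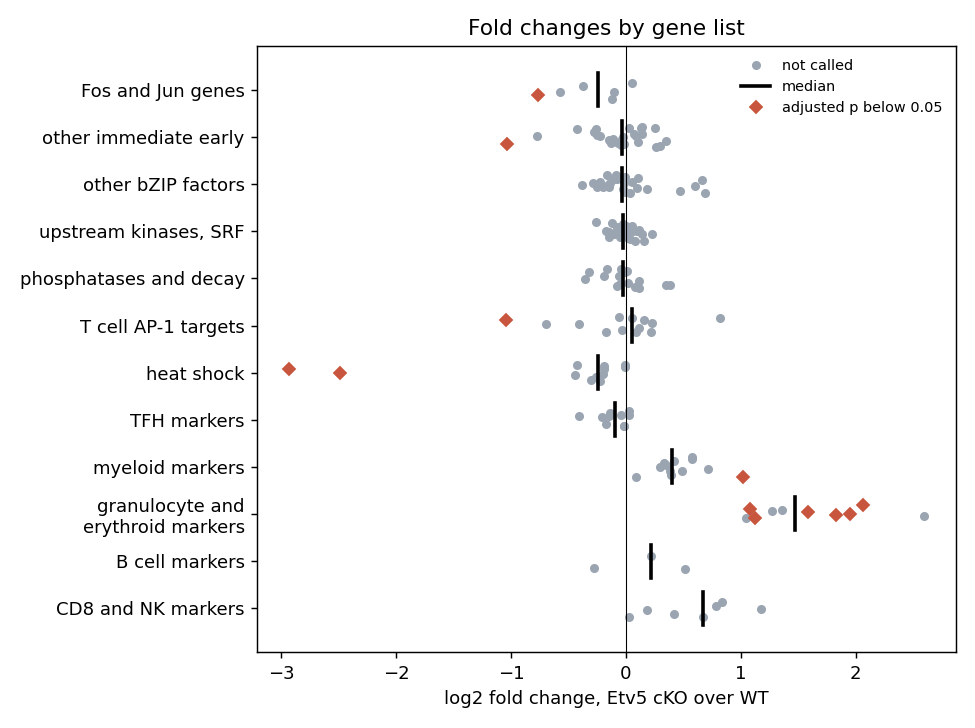
Log2 fold change of Etv5 cKO over WT for each tested gene of 12 lists (points, spread vertically for display), with called genes as red diamonds and the list median as a black bar. The Fos and Jun genes have a median of -0.25, the other immediate early, bZIP, upstream and brake lists have medians between -0.04 and -0.02, the heat shock list has a median of -0.24, and the lists of myeloid and of granulocyte and erythroid markers have medians of 0.41 and 1.47.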

How the data were processed

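Per the submitters' processing notes, mm10 was the build, and TopHat2 (2.0.13) and Cuffdiff (2.2.0) were among the tools. Not given in the sources used here were annotation release, strand setting and library scaling. Per the labels' protocols, the kit was stranded and selected mRNA. A genotype's 2 libraries form 1 Cuffdiff condition, per the file headers. The deposited table gives FPKM per genotype, the log2 fold change of Etv5 cKO over WT without a pseudocount, the fold ratio of larger over smaller FPKM, a test score, and p-values before and after adjustment. No counts or library values were used, so limma, planned for that case, was not run, and the authors' Cuffdiff test is the main test.

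A gene was called at an adjusted p below 0.05. The Benjamini-Hochberg values computed here from the deposited p differed from the deposited ones by at most 8.38e-05; the function was tested on simulated data. Of 184 symbols in the other lists 183 were found. The 8 members and all lists were chosen with earlier results of these data known. Within lists, genes with an unadjusted p below 0.05 and the 3 of highest level beyond them were named (in marker lists only the 3 of highest level), and the 3 genes nearest to Fosb and to Fos. A few genes chosen this way are not reported here. Start positions are the deposited start plus 1. Promoter sequences and starts are RefSeq's (GRCm38.p6), and gene models are those of GENCODE M21. Software was Python 3.11.15 with pandas 2.3.3, scipy 1.17.1 and, for figures, matplotlib 3.10.9. Alternatives were the set of genes adjusted over, pseudocounts, scaling, filters on low values and the threshold.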

Additional observations from a re-analysis of the deposited data

How the results depend on the processing

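The number of the 8 genes called went from 1 to 0, with Fosb losing its call, when p was adjusted over every listed gene (adjusted p of Fosb 0.0900), over genes averaging 5 FPKM or more (0.0519), or with the p of Fosb raised by 1 step of 5e-05 (0.0564), an alternative chosen after seeing the data. The call held over genes averaging 1 FPKM or more (0.0429) and at a threshold of 0.1. The number of genes called over the whole table was 21 among those averaging 5 FPKM or more, where fewer genes are tested, and 32 to 41 under the other alternatives that recount calls. The log2 fold change of Fosb ran from -0.76 to -0.68 and that of Fos from -0.58 to -0.56 over pseudocounts of 1 and 5 FPKM and both scalings, for which the deposited p was kept. No member changed direction. With a pseudocount of 5 FPKM the log2 fold changes of Fosl1 and Atf3 were -0.0046 and 0.018. Leaving out libraries was not run, because the table has 1 value per genotype. No paired analysis was possible because each genotype's numbered libraries share a single pooled value. The depth is unknown.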

Other observations

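T cell genes with known AP-1 sites had values on both sides of the WT level. Of 13 tested genes of that list 7 had higher and 6 lower values in Etv5 cKO, and 1 was called. Of all tested genes 51.1% had lower values in cKO and 0.346% were called. The median log2 fold change of the list was 0.05. The called gene was Ifng, the Th1 cytokine, listed at 29.8 FPKM in WT by the authors' deposited table, which fell to 14.5 FPKM (log2 fold change -1.04, Cuffdiff adjusted p = 0.0181). Il21, the cytokine by which TFH cells drive B cells, stood at 66.1 and 49.7 FPKM (unadjusted p of 0.0197, adjusted p of 0.999). The most abundant others were Ctla4 (208 and 216 FPKM), Tgfb1 (84.2 and 82.1 FPKM) and Il4 (52.1 and 56.6 FPKM). Il3, Il5 and Csf2 were below 0.2 FPKM in both genotypes and were not tested.

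Heat shock genes, which like Fos are induced by stress of cells, had lower values in Etv5 cKO in 12 of 12 tested cases. This held under both scalings, and their median log2 fold change was -0.24. Of all tested genes 51.1% had lower values in cKO and 0.346% were called, with a median of -0.003. The near-identical genes Hspa1a (11.1 and 1.46 FPKM) and Hspa1b (37.6 and 6.71 FPKM), between which reads are uncertain, were the 2 called by Cuffdiff (adjusted p = 0.0181 each). Hsph1 and Dnajb1 (62.6 and 46.8 FPKM) had an unadjusted p of 0.0145 and 0.0200. The most abundant, Hspa8 (1047 and 919 FPKM), Hsp90ab1 (685 and 600.4 FPKM) and Hsp90aa1 (196 and 171 FPKM), had log2 fold changes between -0.20 and -0.19 and did not pass the test. These lists were drawn up with earlier results of these data known.

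The transcript accessions that the deposited table gives for the 8 genes are mixed. Of 26 accessions 10 were found in the mouse RefSeq table of GRCm38.p6, and for 6 of the 8 genes the deposited summary text cites RGD, the Rat Genome Database. The deposited interval of Fosl1 ends 1625 bases beyond the RefSeq end of the gene that of Fosb stops 73 bases short of the RefSeq start of that minus-strand gene, and that of Fos starts 11 bases after the RefSeq start. Whether this bears on the FPKM values was not tested.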
